A study of Homo sapiens with 6 samples.

Results

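Phosphoinositides are made, interconverted and cut by a network of lipid kinases, lipid phosphatases and phospholipases C. The genes described here are 52 that encode such enzymes or partners of the PI 4-kinase PI4KA, a chosen part of this network. They were taken by symbol from a written list sorted into 15 enzyme steps, and all 52 were found among the 60676 Ensembl gene IDs of the count tables. Of these, 51 passed the filter on low counts and were tested among 15577 genes. RNA was sequenced from HEK293A, a strongly adherent subline of the embryonic kidney line HEK293, 2 h after addition of 20 nM VT01454 (3 libraries) or of the DMSO vehicle alone (3 libraries). VT01454 is known here only by its code name, and the series title sets it in work on phosphatidylinositol transfer proteins, phosphoinositides and the Hippo pathway. The questions addressed are which member of each enzyme step stood highest in these cells and whether any of the transcripts differed after the compound. The labels name no genetic change and no further agent in either group, and do not say if libraries of 1 group stem from separate cultures. The p-values therefore rest on the spread between these libraries, which may be technical.

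Phosphatidylinositol (PI) is built in the endoplasmic reticulum, carried to other membranes in part by transfer proteins, and phosphorylated there on its inositol ring by kinases specific for a ring position. PI 4-phosphate (PI4P) is converted to PI(4,5)P2 at the plasma membrane, where phospholipases C cut it into diacylglycerol and IP3 and class I PI 3-kinases turn it into PIP3. On endosomes, PI 3-phosphate and PI(3,5)P2 mark membranes for sorting, and phosphatases of several families return each lipid to its precursor.

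Total counts were 24646466 to 28880374 in the VT01454 libraries and 19126039 to 26879796 in the vehicle libraries, and 3 counts, the limit that a count of 0 allows, were worth 0.105 to 0.156 CPM. CPM here are counts scaled to a library total of 1000000 after TMM scaling, and this limit covers counting error only. Markers of the HEK293 line summed to 2363 to 2445 CPM in VT01454 libraries and 2295 to 2598 CPM in vehicle libraries. Leukocyte markers summed to at most 0.0817 CPM in VT01454 libraries and 0.156 CPM in vehicle libraries, with 3 of 4 at 0 in all 6. Of the 10 HEK293 markers PAX2 and LHX1 were below 1 CPM in all 6. NEFM, another of them, differed several-fold between libraries of a group. It gave 0.140, 3.73 and 3.80 CPM in VT01454 libraries and 4.10, 6.57 and 0.369 CPM in vehicle libraries. Fibroblast and endothelial markers summed to 22.9 to 31.2 CPM in VT01454 libraries and 23.9 to 35.7 CPM in vehicle libraries, most of it COL1A1, with PECAM1 and DCN at or near 0. Squamous markers summed to 0.0802 to 0.572 CPM in VT01454 libraries and 0.0942 to 0.209 CPM in vehicle libraries. All pairs of libraries differed beyond sampling noise. The chi-square per degree of freedom over genes was 2.02 to 2.77 between VT01454 libraries and 7.76 to 19.6 between vehicle libraries. Pairs across the groups had 7.53 to 17.7, so they were no farther apart than the vehicle libraries were from each other. Vehicle library 3 was at 7.53 and 7.55 from VT01454 libraries 2 and 3, and at 7.76 from vehicle library 1. Vehicle libraries 2 and 3 were the pair farthest apart.

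None of the 51 tested phosphoinositide genes passed the test after 2 h of VT01454 (edgeR quasi-likelihood test, Benjamini-Hochberg adjustment over all tested genes, adjusted p below 0.05). Over all tested genes 1.89% passed, 1.27% higher and 0.616% lower. The smallest adjusted p among the members was 0.221, for PIP5K1A, the leading PI4P 5-kinase of these cells. DESeq2 and limma-voom also called 0 members. An unadjusted p below 0.05 was found for 4 members, PIP5K1A, INPP4A and PLCB4 with higher means and INPP5E with a lower one. This is 7.84% of the members against 14.4% of all tested genes, a smaller share in this fit. limma-voom also gave 4 members, 7.84% against 14.4% of all genes. DESeq2, run without the count filter on 31171 genes, gave 4 of 52, or 7.69%, against 6.004% of its genes. That larger set holds the low-count genes the filter removes, so 6.004% is not comparable with 14.4%.

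The log2 fold changes of the members ran from −0.17 for INPP5E to 0.27 for PLCB4, with a median of 0.024 against a median of −0.0073 for all tested genes. The median standard error of a member was 0.073. For 49 of the 51 members the 95% interval of the fold change lay within 1.5-fold in either direction. The exceptions were PIP4K2B, whose libraries differed several-fold within each group, and PLCD1, a low transcript. In RNA pooled from a culture, a difference carried by some cells and a smaller one shared by every cell cannot be told apart.

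**Figure D1:**
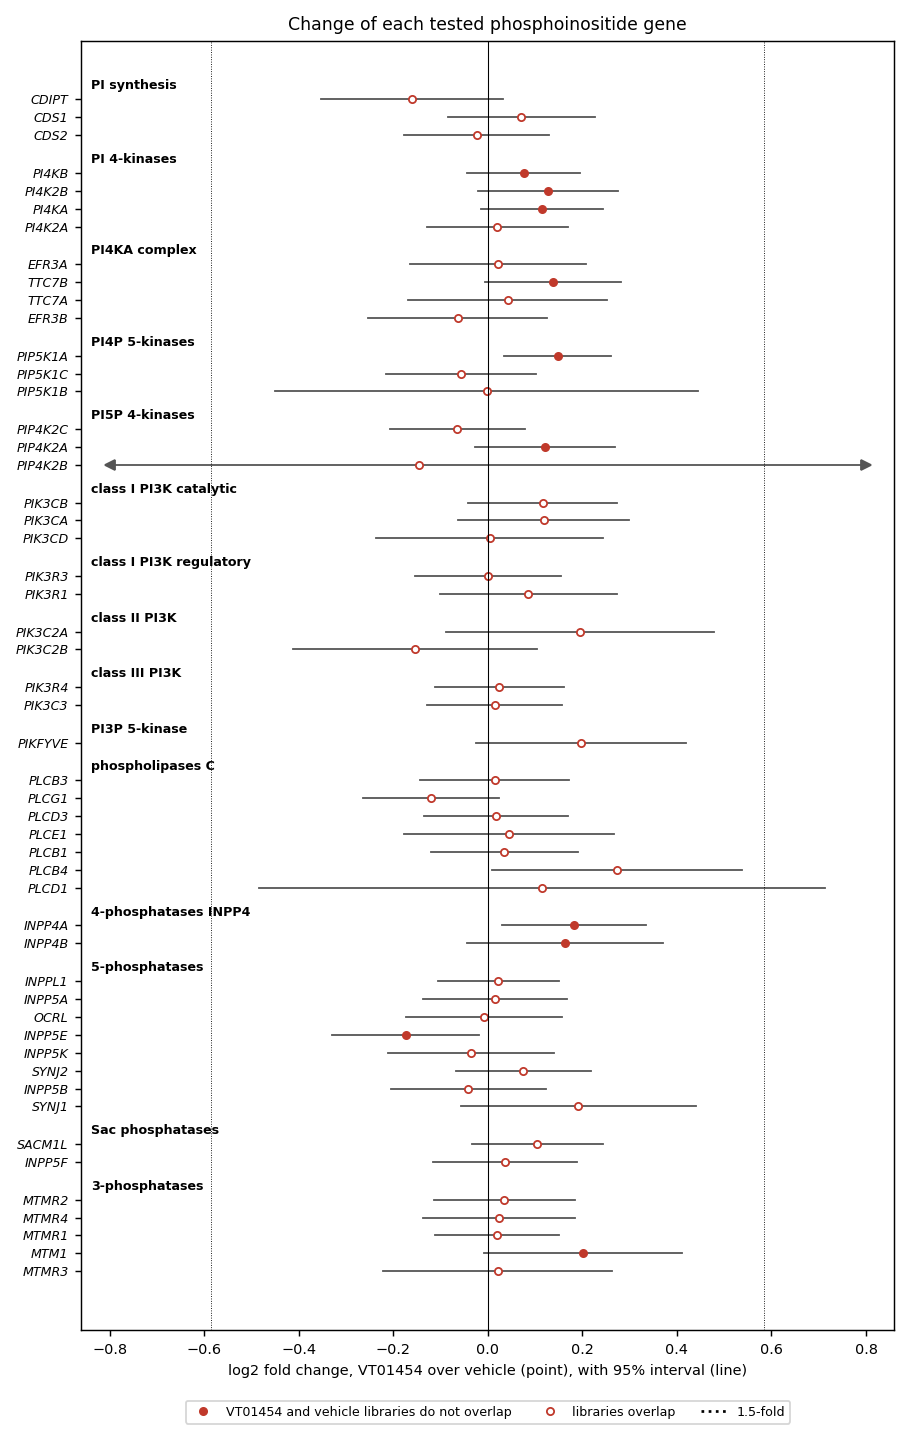
Log2 fold change (VT01454 over vehicle) of the 51 tested members by enzyme step, each with its 95% interval from edgeR; filled points mark genes whose 3 VT01454 libraries all lie above or all below the 3 vehicle libraries, and arrowheads mark an interval that runs past the axis. The points lie between −0.17 and 0.27, and 49 intervals stay between the dotted lines at 1.5-fold.

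For levels between genes, CPM was divided by the exonic length of the gene in kb. On this scale the member levels in vehicle ran from 33.7 CPM per kb for PIP5K1A down to 0.437 for PIP5K1B and 0.286 for PLCD1, leaving aside PIK3R2, which shares most of its exon bases with another annotation. In CPM, 46 of the 52 members had a vehicle mean of at least 10. In all 14 steps with more than 1 member, the same member had the highest level per length in each of the 6 libraries, with PIK3R2 taken as counted. Dividing by the longest coding length instead left 10 such steps and gave another leader in 3: TTC7B in place of EFR3A, PLCG1 in place of PLCB3, and INPP5A in place of INPPL1.

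**Figure D2:**
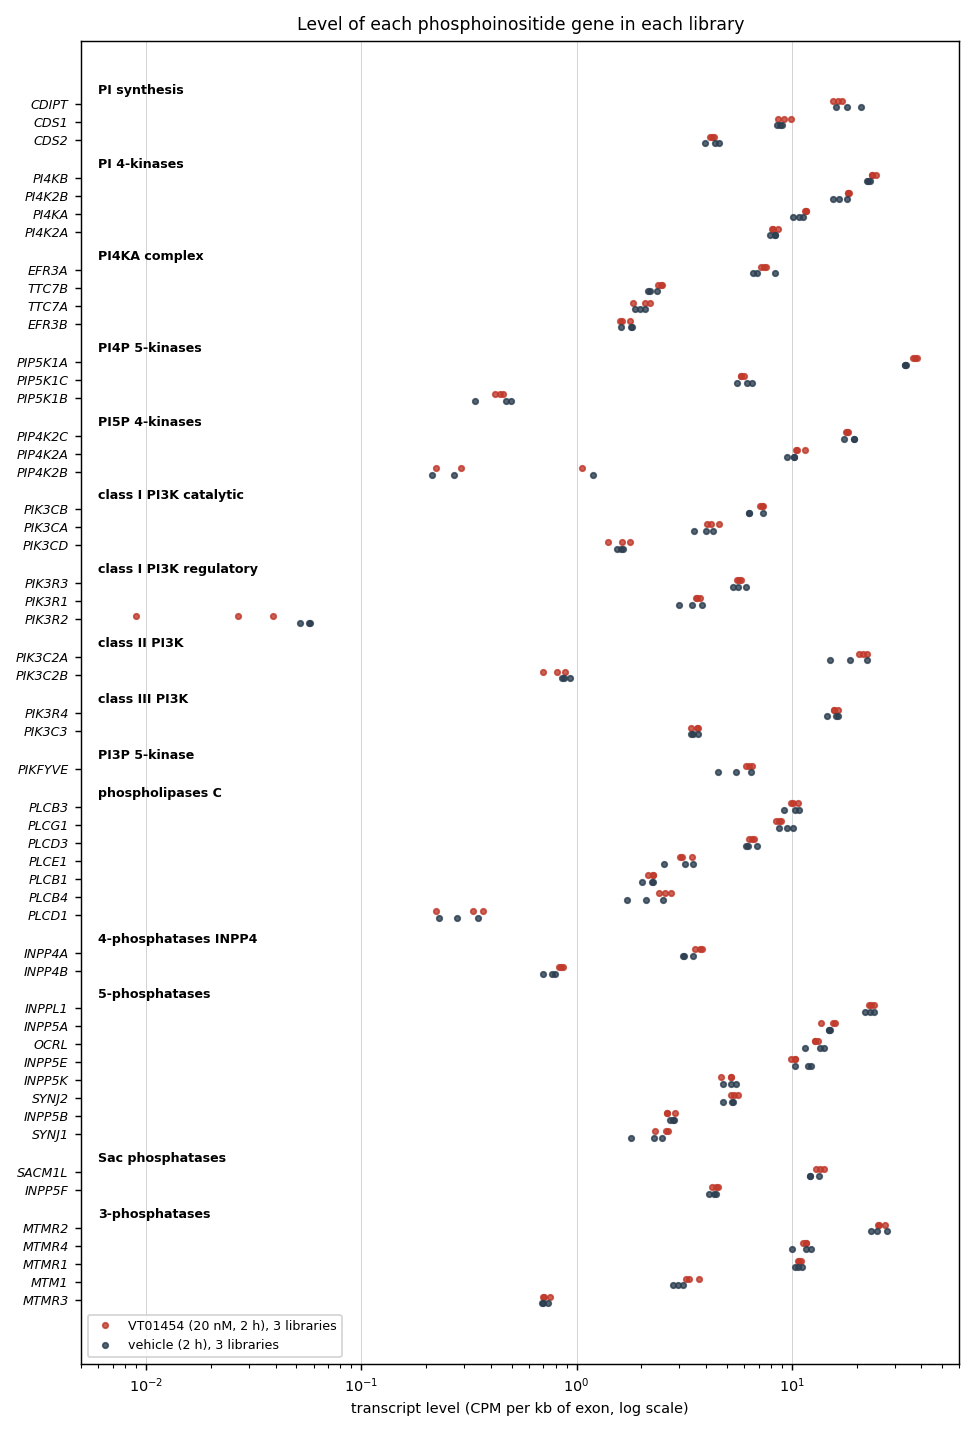
Level of each of the 52 members in each library, in CPM per kb of exon on a log axis, ordered within each enzyme step by the vehicle mean; red points are the 3 VT01454 libraries and dark points the 3 vehicle libraries. The highest gene is PIP5K1A, at 33.7 in vehicle, and PIK3R2 is drawn from counts of 1 to 7. The points of both groups lie close together for most genes, and PIP4K2B is spread in both groups.

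The first enzymes of the pathway make PI itself: CDS1 and CDS2 form CDP-diacylglycerol, and CDIPT joins it to inositol. CDIPT led the step at 16.4 ± 0.78 CPM per kb in VT01454 libraries and 18.3 ± 2.43 in vehicle libraries (SD, n = 3 each), with CDS1 next. Over the 6 libraries CDIPT stood 1.92 times above CDS1, and their ranges were separate. CDS2 stood at 4.26 ± 0.10 CPM per kb in VT01454 libraries and 4.32 ± 0.33 in vehicle libraries, below CDS1 by exonic length and above it by coding length. CDIPT also had the smallest p of the step. Its CPM were 56.9, 51.7 and 54.7 in VT01454 libraries 1 to 3 and 60.3, 69.3 and 53.2 in vehicle libraries 1 to 3. Vehicle library 2 was high and vehicle library 3 was below VT01454 libraries 1 and 3, so the groups overlapped (log2 fold change −0.16 ± 0.09 SE, adjusted p = 0.439). The log2 fold changes of CDS1 and CDS2 were 0.07 ± 0.07 and −0.02 ± 0.07 (SE), and neither passed the test.

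PI is phosphorylated at the 4 position by type III kinases, PI4KA at the plasma membrane and PI4KB at the Golgi, and by the type II kinases PI4K2A and PI4K2B of the trans-Golgi and endosomes. PI4KB led in every library, at 23.9 ± 0.68 CPM per kb in VT01454 libraries and 22.6 ± 0.39 in vehicle libraries. In vehicle it was followed by PI4K2B (16.7 ± 1.26), PI4KA (10.7 ± 0.60) and PI4K2A (8.18 ± 0.26 CPM per kb), each neighbour separate from the next over the 6 libraries. By coding length PI4KA and PI4K2A changed places, with a level ratio of 0.839.

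PI4KB gave 134, 128 and 128 CPM in VT01454 libraries and 126, 122 and 123 CPM in vehicle libraries. PI4KA (chromosome 22, 20707691 to 20859417, GRCh38) gave 132, 131 and 133 CPM in VT01454 libraries and 128, 115 and 123 CPM in vehicle libraries. For PI4KB, PI4KA and PI4K2B every VT01454 library lay above every vehicle library, by small amounts: the log2 fold changes were 0.08 ± 0.06, 0.11 ± 0.06 and 0.13 ± 0.07 (SE), with adjusted p from 0.403 to 0.563. PI4K2A had a log2 fold change of 0.02 ± 0.07. All 4 PI 4-kinases were thus above 0 without passing the test, and their summed level was 62.0 ± 0.75 CPM per kb in VT01454 libraries and 58.3 ± 0.999 in vehicle libraries. The pseudogenes PI4KAP1 and PI4KAP2, near-identical to stretches of PI4KA, had mean CPM of 13.4 ± 0.73 and 11.7 ± 0.43 in VT01454 libraries and 15.2 ± 0.39 and 12.8 ± 1.86 in vehicle libraries, and reads that fit more than 1 of these genes make their counts uncertain.

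PI4KA is held at the plasma membrane by a scaffold of TTC7A or TTC7B and the palmitoylated anchor EFR3A or EFR3B. Among these genes EFR3A led, at 7.38 ± 0.20 CPM per kb in VT01454 libraries and 7.25 ± 0.93 in vehicle libraries. TTC7B (2.46 ± 0.06 and 2.23 ± 0.12 CPM per kb in VT01454 and vehicle libraries) and TTC7A (2.04 ± 0.18 and 1.98 ± 0.10) were not separate over the 6 libraries, and EFR3B was lowest at 1.66 ± 0.09 and 1.74 ± 0.12. This order depended on the length used: by coding length TTC7B was 3.74 times TTC7A over the 6 libraries, and TTC7B stood above EFR3A.

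TTC7B gave 50.9, 53.3 and 52.5 CPM in VT01454 libraries and 46.6, 45.5 and 50.3 CPM in vehicle libraries. All 3 VT01454 libraries were above the vehicle ones, with VT01454 library 1 and vehicle library 3 nearly level (log2 fold change 0.14 ± 0.07 SE, adjusted p = 0.368). TTC7A gave 12.8, 15.2 and 14.5 CPM in VT01454 libraries and 14.5, 13.0 and 13.7 CPM in vehicle libraries. EFR3A gave 45.8, 47.0 and 44.5 CPM in VT01454 libraries and 42.6, 40.8 and 51.5 CPM in vehicle libraries, the highest value being that of vehicle library 3. EFR3B gave 16.9, 18.7 and 17.2 CPM in VT01454 libraries and 19.04, 16.9 and 19.2 CPM in vehicle libraries. For these 3 genes the groups overlapped, and their log2 fold changes were 0.04 ± 0.10, 0.02 ± 0.09 and −0.06 ± 0.09 (SE). Their adjusted p-values ran from 0.774 to 0.929.

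The step from PI4P to PI(4,5)P2 is made by PIP5K1A, PIP5K1B and PIP5K1C, and here the isoforms differed most in level among the steps whose members all passed the count filter. PIP5K1A made up 85.6 ± 0.09% of the summed level per length in VT01454 libraries and 83.8 ± 1.18% in vehicle libraries, PIP5K1C 13.4 ± 0.12% and 15.1 ± 0.99%, and PIP5K1B 1.004 ± 0.04% and 1.08 ± 0.20% in VT01454 and vehicle libraries. In vehicle the level of PIP5K1A was 77.2 times that of PIP5K1B. The RefSeq promoters of the 3 genes are shown because the genes serve the same enzyme step at such unequal transcript levels. Which starts these cells use, and whether the promoters account for the levels, was not tested. Each runs from 250 bases before to 50 bases after an annotated start in GRCh38.p14, 5′ to 3′ on the gene's strand, with every CG dinucleotide in capitals. PIP5K1A starts at 1 annotated place (chr1:151198302-151198601, + strand), PIP5K1B at 2 (chr9:68704990-68705289 and chr9:68705730-68706029, + strand) and PIP5K1C at 1 (chr19:3700419-3700718, − strand).
PIP5K1A: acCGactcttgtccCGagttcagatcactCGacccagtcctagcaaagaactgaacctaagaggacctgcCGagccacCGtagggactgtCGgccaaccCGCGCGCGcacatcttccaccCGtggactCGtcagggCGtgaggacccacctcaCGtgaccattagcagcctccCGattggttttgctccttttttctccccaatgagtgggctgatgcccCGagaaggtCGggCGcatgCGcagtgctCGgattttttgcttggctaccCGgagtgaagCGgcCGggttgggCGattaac
PIP5K1B upstream start: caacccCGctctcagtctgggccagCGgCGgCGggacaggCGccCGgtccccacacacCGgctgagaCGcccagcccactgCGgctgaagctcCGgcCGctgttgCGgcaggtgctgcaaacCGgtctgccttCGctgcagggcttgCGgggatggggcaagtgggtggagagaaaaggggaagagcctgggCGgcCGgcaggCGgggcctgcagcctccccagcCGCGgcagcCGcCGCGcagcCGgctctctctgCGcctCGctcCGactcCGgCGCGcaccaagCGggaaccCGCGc
PIP5K1B downstream start: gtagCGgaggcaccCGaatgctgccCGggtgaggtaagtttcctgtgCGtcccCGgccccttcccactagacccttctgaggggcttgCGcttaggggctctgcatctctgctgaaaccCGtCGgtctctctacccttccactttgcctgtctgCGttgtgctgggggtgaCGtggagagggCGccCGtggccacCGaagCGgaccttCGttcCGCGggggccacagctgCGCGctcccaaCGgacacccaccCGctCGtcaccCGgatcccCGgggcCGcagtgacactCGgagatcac
PIP5K1C: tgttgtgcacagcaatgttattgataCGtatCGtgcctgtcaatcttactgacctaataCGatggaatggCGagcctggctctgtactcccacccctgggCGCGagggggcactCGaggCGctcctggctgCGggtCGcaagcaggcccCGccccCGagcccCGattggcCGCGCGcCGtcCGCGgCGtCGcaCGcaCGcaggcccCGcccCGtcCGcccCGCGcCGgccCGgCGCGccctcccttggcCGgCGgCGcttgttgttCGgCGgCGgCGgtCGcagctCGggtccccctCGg

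PIP5K1A, by far the highest transcript, had the fewest CG dinucleotides of these windows, with 24 and a GC content of 59.7%. The windows of PIP5K1B held 33 and 26, and that of PIP5K1C held 42. All 4 windows were thus dense in CG: the median over 35116 promoters in the RefSeq table was 14, and 41.2% of them held at least 20. Of the 52 members 46 were matched in that table, with 81 starts, of which 65.4% held at least 20 CG. A start of this kind was found for 40 of the 46 genes.

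Short motifs were searched on both strands of the 81 member promoters. The TEAD motif CATTCC was found in 9 (11.1%, against 14.0% of all promoters), among them that of PIP5K1C. The ETS motif CCGGAAG was found in 11 (13.6%, against 10.3%), and the AP-1 motif TGAGTCA, the CRE motif TGACGTCA and the EGR motif GCGTGGGCG in 0 (against 4.95%, 1.85% and 0.795% of all promoters). The NRF1 palindrome was found in 2 (2.47%, against 1.24%), those of PIP5K1A and INPP4A. A match of letters is a description of these windows and says nothing of binding.

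PIP5K1A (chromosome 1, 151197949 to 151249536, GRCh38) gave 206, 197 and 202 CPM in VT01454 libraries and 182, 182 and 183 CPM in vehicle libraries. The vehicle libraries were nearly level and all VT01454 libraries were above them, a 1.11-fold difference (log2 fold change 0.15 ± 0.05 SE, unadjusted p = 0.0148, adjusted p = 0.221). Over all alternative fits its log2 fold change ran from 0.12 to 0.17, with adjusted p from 0.0564 to 0.551. PIP5K1C, whose product makes PI(4,5)P2 at focal adhesions and synapses, had 40.8 ± 0.72 CPM in VT01454 libraries and 42.4 ± 3.40 CPM in vehicle libraries. PIP5K1B had 2.16 ± 0.10 CPM in VT01454 libraries and 2.15 ± 0.42 CPM in vehicle libraries. Their log2 fold changes were −0.06 ± 0.07 and 0.00 ± 0.21 (SE), and the groups overlapped for both.

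The other route to PI(4,5)P2 uses PI5P and the kinases PIP4K2A, PIP4K2B and PIP4K2C. PIP4K2C led at 18.0 ± 0.23 CPM per kb in VT01454 libraries and 18.8 ± 1.18 in vehicle libraries, 1.77 times PIP4K2A over the 6 libraries and 1.105 times by coding length. PIP4K2C gave 59.3, 58.6 and 60.1 CPM in VT01454 libraries and 64.3, 57.5 and 64.2 CPM in vehicle libraries, so that vehicle library 2 lay below the VT01454 libraries and the other vehicle libraries above them. PIP4K2A gave 53.8, 58.7 and 53.0 CPM in VT01454 libraries and 51.98, 48.2 and 51.99 CPM in vehicle libraries. Its groups did not overlap, with VT01454 higher (log2 fold change 0.12 ± 0.07 SE, adjusted p = 0.451).

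PIP4K2B stood apart from every other tested member in its spread between libraries. Its CPM were 1.79, 1.36 and 6.53 in VT01454 libraries and 1.65, 1.303 and 7.30 in vehicle libraries, from counts of 51, 34 and 160 in VT01454 libraries and 35, 25 and 198 in vehicle libraries. VT01454 library 3 and vehicle library 3 were high, and the other 4 were low at similar levels. The ratio of the highest to the lowest library was 5.602, the only one above 2 among the 51 tested members, whose median ratio was 1.17. Its 95% interval of −2.88 to 2.59 on the log2 scale leaves the difference between the groups undetermined at this spread. The gene, counted here under the ID ENSG00000276293 on chromosome 17 (38765689 to 38800126, GRCh38), shares no exon base with another gene in GENCODE 29. ITPK1, an inositol phosphate kinase chosen after its values were seen, also differed several-fold between libraries of a group. It gave 13.9, 3.01 and 11.7 CPM in VT01454 libraries and 2.498, 2.66 and 2.80 CPM in vehicle libraries. The high libraries were not the same ones for ITPK1 and PIP4K2B, and the source of this spread was not tested.

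**Figure D3:**
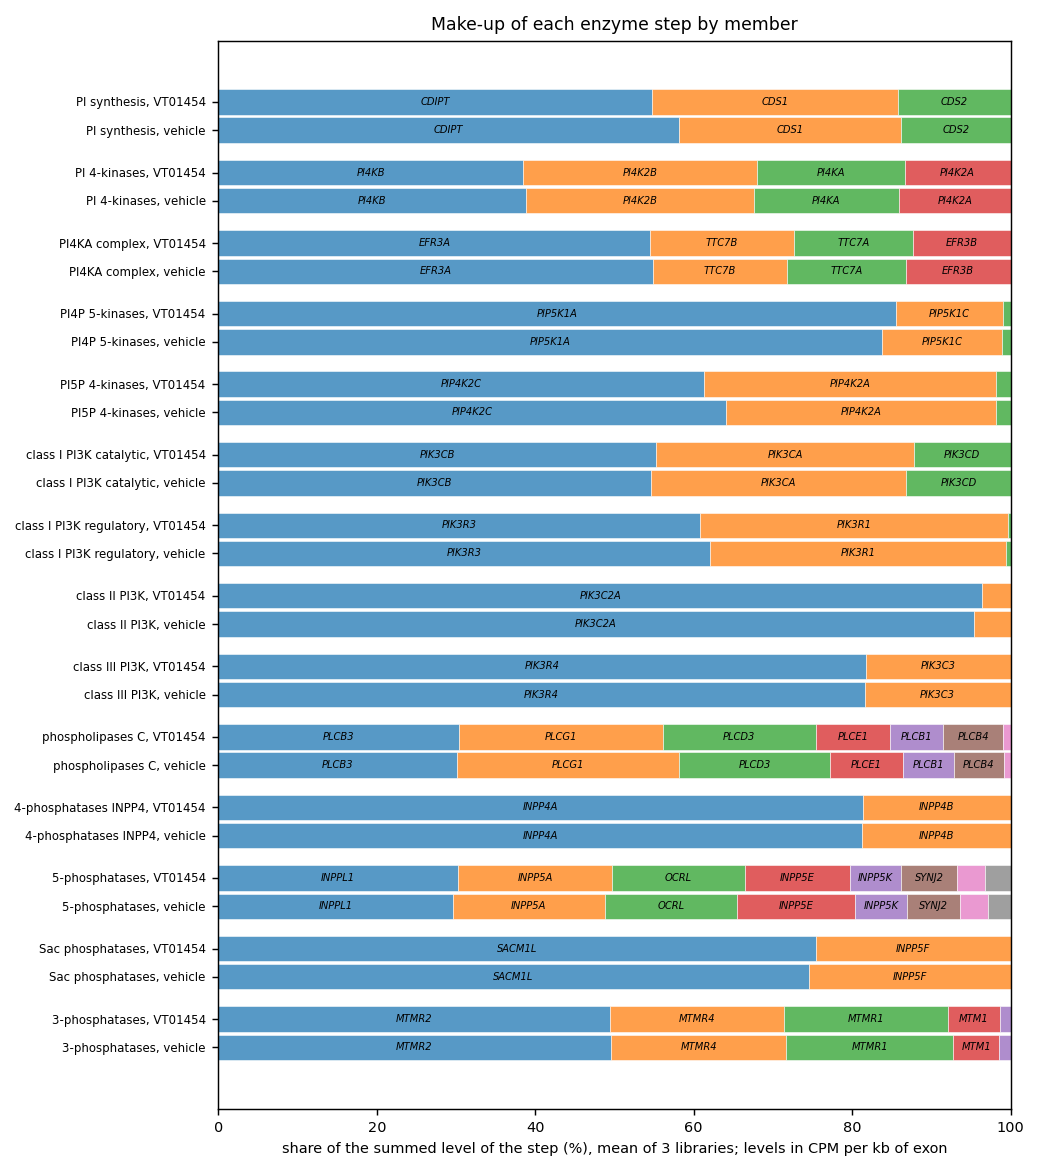
Share of each member in the summed level of its enzyme step (mean of 3 libraries, levels in CPM per kb of exon), with the VT01454 bar above the vehicle bar; slices too narrow for a name are the lowest members of the step. PIP5K1A makes up 85.6% and 83.8%, and PIK3C2A 96.4% and 95.3%, in VT01454 and vehicle libraries.

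Class I PI 3-kinases make PIP3 from PI(4,5)P2 with a catalytic subunit (PIK3CA, PIK3CB or PIK3CD) bound to a regulatory one (PIK3R1, PIK3R2 or PIK3R3). PIK3CB led the catalytic subunits at 7.24 ± 0.12 CPM per kb in VT01454 libraries and 6.67 ± 0.59 in vehicle libraries, above PIK3CA at 4.28 ± 0.27 and 3.93 ± 0.39, and PIK3CD, the isoform best known from leukocytes, at 1.596 ± 0.19 and 1.595 ± 0.05 CPM per kb in VT01454 and vehicle libraries. PIK3CB gave 55.9, 57.8 and 56.9 CPM in VT01454 libraries and 49.7, 49.7 and 57.7 CPM in vehicle libraries, where vehicle library 3 stood among the VT01454 values. Its log2 fold change was 0.12 ± 0.07 (SE), and that of PIK3CA was 0.12 ± 0.08, with adjusted p of 0.492 and 0.548. PIK3CD had a log2 fold change of 0.00 ± 0.11.

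Between the regulatory subunits with a usable level, PIK3R3 stood above PIK3R1 in every library. Most exon bases of PIK3R2 are shared with another annotation, so its place is unknown and the shares hold only as counted. PIK3R3 had 60.8 ± 1.01% of the summed level per length in VT01454 libraries and 62.1 ± 1.29% in vehicle libraries, and PIK3R1 38.9 ± 0.93% and 37.3 ± 1.36%. PIK3R3 gave 41.3, 43.0 and 42.3 CPM in VT01454 libraries and 41.7, 39.4 and 45.4 CPM in vehicle libraries, with means closer than their error (log2 fold change 0.00 ± 0.07 SE, 95% interval −0.15 to 0.15). PIK3R1 gave 40.1, 38.5 and 39.2 CPM in VT01454 libraries and 37.2, 32.2 and 41.3 CPM in vehicle libraries, the vehicle values spanning those of VT01454 (log2 fold change 0.09 ± 0.09 SE, adjusted p = 0.688).

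PIK3R2 was close to the counting floor in every library, with 5, 3 and 1 counts in VT01454 libraries and 5, 5 and 7 counts in vehicle libraries, and it was not tested. The gene (chromosome 19, 18153118 to 18170540, GRCh38) shares 3947 of its 4524 exonic bases, or 87.2%, with the same-strand annotation AC007192.1 in GENCODE 29. AC007192.1 itself held 1 count over the 6 libraries. How reads in shared bases were counted is not given in the sources used here, so the counts of PIK3R2 are no measure of its level. Shares of exon above 20% with other genes were also found for MTMR3 (66.5%), PI4K2B, PIK3CA, PI4K2A and CDIPT, and their levels per length carry the same uncertainty.

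Class II and class III PI 3-kinases act on endosomal and autophagic membranes. PIK3C2A, a clathrin-associated class II kinase, was among the most abundant members, at 21.4 ± 0.90 CPM per kb in VT01454 libraries and 18.7 ± 3.68 in vehicle libraries, and made up 96.4 ± 0.50% of the level of its class in VT01454 libraries and 95.3 ± 1.07% in vehicle libraries. It gave 189, 205 and 197 CPM in VT01454 libraries and 172, 138 and 206 CPM in vehicle libraries. Vehicle library 2 was far below all others and vehicle library 3 the highest of the 6 (log2 fold change 0.20 ± 0.12 SE, adjusted p = 0.515). PIK3C2B had 7.49 ± 0.88 CPM in VT01454 libraries and 8.34 ± 0.38 CPM in vehicle libraries, with a log2 fold change of −0.15 ± 0.12.

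In the class III complex the regulatory subunit PIK3R4 led the catalytic subunit PIK3C3 4.46-fold over the 6 libraries by exonic length and 1.03-fold by coding length. PIK3R4 gave 84.8, 84.2 and 87.7 CPM in VT01454 libraries and 85.9, 78.6 and 87.8 CPM in vehicle libraries. The groups overlapped, with a log2 fold change of 0.02 ± 0.06 (SE) for PIK3R4 and 0.01 ± 0.07 for PIK3C3. PIKFYVE, which adds a 5-phosphate to PI 3-phosphate, gave 66.4, 68.3 and 70.6 CPM in VT01454 libraries and 59.4, 49.3 and 69.8 CPM in vehicle libraries. The vehicle libraries differed among themselves by more than the group means, and vehicle library 3 lay between VT01454 libraries 2 and 3 (log2 fold change 0.20 ± 0.10 SE, adjusted p = 0.403).

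The 7 phospholipases C of the list cut PI(4,5)P2, the PLCB enzymes downstream of G proteins, PLCG1 downstream of tyrosine kinases and PLCE1 downstream of small GTPases. PLCB3 and PLCG1 were highest, at 10.2 ± 0.37 and 8.68 ± 0.22 CPM per kb in VT01454 libraries and 10.1 ± 0.80 and 9.43 ± 0.69 in vehicle libraries, and were not separate over the 6 libraries. By coding length the order was PLCG1, PLCD3, PLCB3. By exonic length PLCD3 followed at 6.502 ± 0.18 CPM per kb in VT01454 libraries and 6.43 ± 0.43 in vehicle libraries. PLCE1, PLCB1 and PLCB4 had means of 2.23 to 3.18 CPM per kb in VT01454 libraries and 2.12 to 3.07 in vehicle libraries, and PLCD1 was lowest at 0.307 ± 0.07 in VT01454 libraries and 0.286 ± 0.06 in vehicle libraries.

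PLCB3 gave 50.4, 49.3 and 52.8 CPM in VT01454 libraries and 53.5, 45.8 and 51.5 CPM in vehicle libraries, with overlapping groups and a log2 fold change of 0.01 ± 0.07 (SE). PLCB4 (chromosome 20, 9068763 to 9481242, GRCh38) had the highest log2 fold change of all members, 0.27 ± 0.12 (SE, unadjusted p = 0.0443, adjusted p = 0.333). Its CPM were 17.7, 16.7 and 18.9 in VT01454 libraries and 14.4, 11.9 and 17.5 in vehicle libraries. Vehicle library 3 lay within the VT01454 range, and vehicle library 2 was the lowest of the 6. The log2 fold change was 0.15 without vehicle library 2 and 0.43 without vehicle library 3. PLCG1 was among the members with a negative value, −0.12 ± 0.07 (SE, adjusted p = 0.439). PLCB1, PLCD3 and PLCE1 had log2 fold changes from 0.02 to 0.04, and for PLCD1 the 95% interval of −0.48 to 0.71 left a difference of 1.5-fold within reach.

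The phosphatases were described by the ring position they act on. INPP4A and INPP4B remove the 4-phosphate of PI(3,4)P2, and INPP4A led at 3.70 ± 0.15 CPM per kb in VT01454 libraries and 3.26 ± 0.20 in vehicle libraries. INPP4A (chromosome 2, 98444854 to 98594390, GRCh38) gave 49.4, 46.6 and 50.5 CPM in VT01454 libraries and 41.7, 41.2 and 45.9 CPM in vehicle libraries. All VT01454 libraries were above all vehicle libraries, the nearest being VT01454 library 2 and vehicle library 3 (log2 fold change 0.18 ± 0.07 SE, unadjusted p = 0.0225, adjusted p = 0.261). INPP4B gave 12.2, 11.9 and 11.7 CPM in VT01454 libraries and 10.9, 9.85 and 11.2 CPM in vehicle libraries. Its groups did not overlap either (log2 fold change 0.16 ± 0.10 SE, adjusted p = 0.467).

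The 8 listed inositol 5-phosphatases included INPPL1 (SHIP2), which acts on PIP3, INPP5A, which acts on soluble IP3, and the Lowe syndrome phosphatase OCRL. Also among them were the synaptojanins SYNJ1 and SYNJ2, and INPP5E of the primary cilium. INPPL1 led by exonic length, at 23.4 ± 0.66 CPM per kb in VT01454 libraries and 23.003 ± 1.19 in vehicle libraries. INPP5A, OCRL and INPP5E formed the next tier, at 10.2 to 15.0 CPM per kb in VT01454 libraries and 11.5 to 14.9 in vehicle libraries, with INPP5A overlapping OCRL and OCRL overlapping INPP5E. INPP5K, SYNJ2, INPP5B and SYNJ1 stood lower, from 2.51 to 5.41 CPM per kb in VT01454 libraries and from 2.197 to 5.16 in vehicle libraries.

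INPPL1 gave 152, 148 and 157 CPM in VT01454 libraries and 157, 151 and 142 CPM in vehicle libraries, fully overlapping (log2 fold change 0.02 ± 0.06 SE). INPP5E (chromosome 9, 136428619 to 136439823, GRCh38) had the lowest log2 fold change of all members, −0.17 ± 0.07 (SE, unadjusted p = 0.0319, adjusted p = 0.295). Its CPM were 66.9, 64.4 and 67.1 in VT01454 libraries and 80.0, 76.8 and 67.2 in vehicle libraries. All VT01454 libraries were below all vehicle libraries, but vehicle library 3 stood just above VT01454 library 3. SYNJ1 had 20.96, 21.3 and 18.6 CPM in VT01454 libraries and 20.2, 14.4 and 18.5 CPM in vehicle libraries, with overlapping groups (log2 fold change 0.19 ± 0.11 SE, adjusted p = 0.477). The other 5 had log2 fold changes from −0.04 to 0.07, and none passed the test.

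Of the Sac-domain phosphatases, SACM1L, which removes the 4-phosphate of PI4P in the endoplasmic reticulum, led INPP5F 2.997-fold by exonic length in the means over all 6 libraries. SACM1L gave 104, 99.1 and 95.5 CPM in VT01454 libraries and 89.5, 89.2 and 98.6 CPM in vehicle libraries, where vehicle library 3 lay within the VT01454 range (log2 fold change 0.11 ± 0.06 SE, adjusted p = 0.485). INPP5F had a log2 fold change of 0.04 ± 0.07.

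The myotubularins remove the 3-phosphate from PI 3-phosphate and PI(3,5)P2. MTMR2 led at 25.9 ± 1.01 CPM per kb in VT01454 libraries and 25.2 ± 2.25 in vehicle libraries, above MTMR4 and MTMR1. These overlapped, MTMR4 at 11.5 ± 0.23 CPM per kb in VT01454 libraries and 11.3 ± 1.14 in vehicle libraries, and MTMR1 at 10.9 ± 0.20 and 10.7 ± 0.37. MTM1, mutated in X-linked myotubular myopathy, was at 3.41 ± 0.26 CPM per kb in VT01454 libraries and 2.96 ± 0.16 in vehicle libraries, and MTMR3 at 0.718 ± 0.03 and 0.708 ± 0.03. MTMR2 gave 165, 156 and 154 CPM in VT01454 libraries and 151, 142 and 169 CPM in vehicle libraries, and vehicle library 3 was the highest (log2 fold change 0.04 ± 0.07 SE). MTM1 gave 13.4, 14.9 and 12.9 CPM in VT01454 libraries and 11.9, 11.3 and 12.6 CPM in vehicle libraries. Its groups did not overlap, though VT01454 library 3 and vehicle library 3 were close (log2 fold change 0.20 ± 0.10 SE, adjusted p = 0.368). MTMR1, MTMR3 and MTMR4 each had a log2 fold change of 0.02.

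The make-up of each step by member was compared between the groups over 51 shares in the 14 steps with more than 1 member. PI synthesis, the PI4KA complex and the class III step hold different enzymes or subunits. A share in these steps, that of CDIPT included, is not a choice between isoforms. The largest shift by exonic length was that of CDIPT, 54.8 ± 1.97% in VT01454 libraries and 58.1 ± 4.25% in vehicle libraries, a difference of −3.33 points within the spread of the vehicle libraries. By coding length it was that of PIP4K2A, 47.8% in VT01454 libraries and 44.6% in vehicle libraries. For 10 shares the exact two-sided permutation p was 0.1, the smallest that 3 against 3 libraries allow, and 0.51 after Benjamini-Hochberg adjustment over the 51. Among them PIP4K2A held 36.9 ± 2.04% in VT01454 libraries and 34.0 ± 0.93% in vehicle libraries, and PLCG1 25.8 ± 0.59% and 28.0 ± 0.48%. PIP5K1A was another, with 85.6, 85.5 and 85.6% in VT01454 libraries and 82.7, 85.1 and 83.5% in vehicle libraries. Shares within a step are tied to each other, and no share could pass a threshold of 0.05 in this design.

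Over the 51 tested members the groups did not overlap for 10. In 9 every VT01454 library lay above every vehicle library, 17.6% of the members against 11.3% of all tested genes: PI4KA, PI4KB, PI4K2B, TTC7B, PIP5K1A, PIP4K2A, INPP4A, INPP4B and MTM1. In 1, INPP5E, every VT01454 library lay below, 1.96% against 9.84% of all tested genes. The log2 fold change was above 0 for 37 of the 51 members, or 72.5%, against 48.4% of all tested genes. This count moved with vehicle library 2, which was the lowest of the 3 vehicle libraries for 38 of the 51 members, or 74.5%, against 38.2% of all tested genes. Without that library 28 of 51 members were above 0, or 54.9%, against 50.7% of all tested genes. With library size alone in place of TMM 27 of 51 were, or 52.9%, against 42.6% of all tested genes, since that scaling moved the median of all genes to −0.031.

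**Figure D4:**
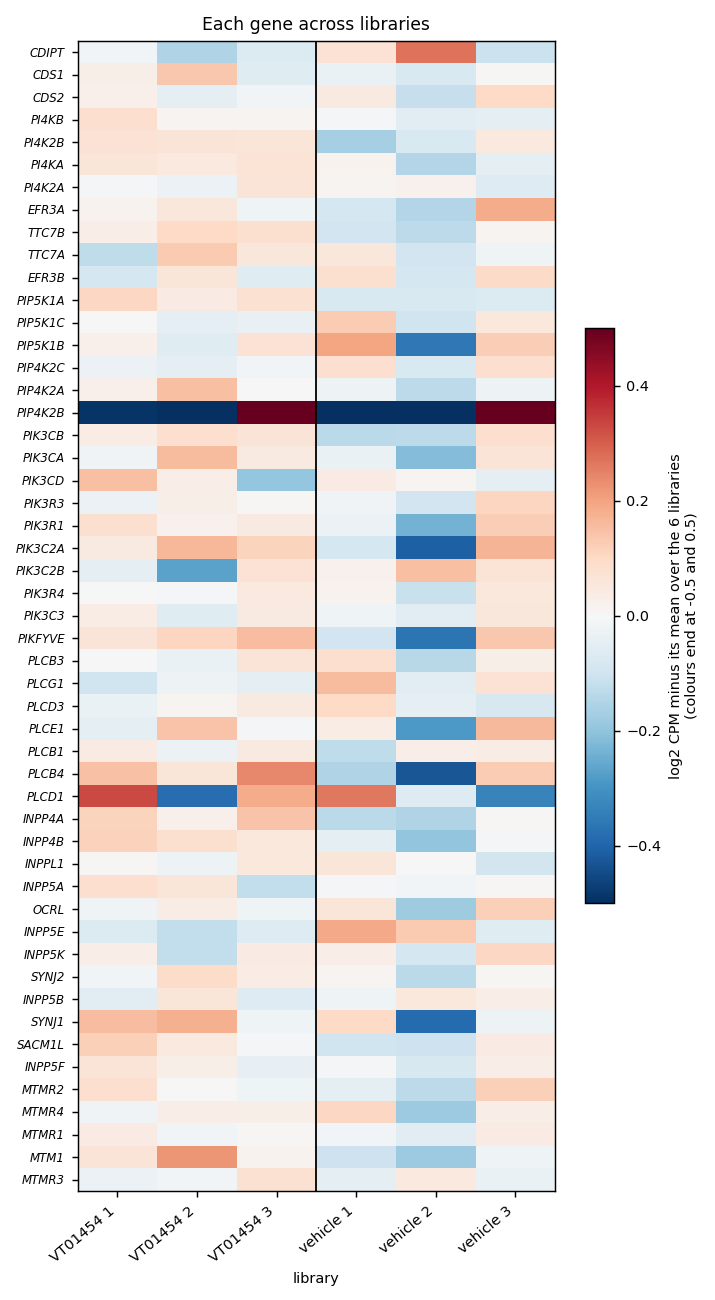
Each of the 51 tested members in each library, as log2 CPM minus its mean over the 6 libraries, with the VT01454 libraries on the left of the line. The column of vehicle library 2 is blue for most genes, the lowest vehicle library for 38 of 51, and PIP4K2B is dark red in VT01454 library 3 and vehicle library 3 and dark blue in the other 4.

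Leaving out vehicle library 3 changed the count of calls. With the other 5 libraries 7 members passed, 13.7% of the 51, against 11.4% of all tested genes in the same fit. Higher in VT01454 libraries were PLCB4 (log2 fold change 0.43, adjusted p = 0.0214), PIK3C2A (0.34, 0.0262), PIKFYVE (0.33, 0.0141), INPP4A (0.23, 0.0338) and PIK3CB (0.19, 0.0494), and lower were INPP5E (−0.25, 0.0130) and CDIPT (−0.25, 0.0352), by edgeR's quasi-likelihood test. For all 7, vehicle library 3 was the vehicle library nearest to the VT01454 values, as the values above show. Without vehicle library 2 instead, the same genes had log2 fold changes of 0.15 for PLCB4, 0.06 for PIK3C2A, 0.08 for PIKFYVE, 0.15 for INPP4A, 0.08 for PIK3CB, −0.15 for INPP5E and −0.06 for CDIPT, with adjusted p from 0.299 to 0.778. The members' share without vehicle library 3 stood near that of all genes, and leaving out any of the other 5 libraries gave 0 calls.

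**Figure D5:**
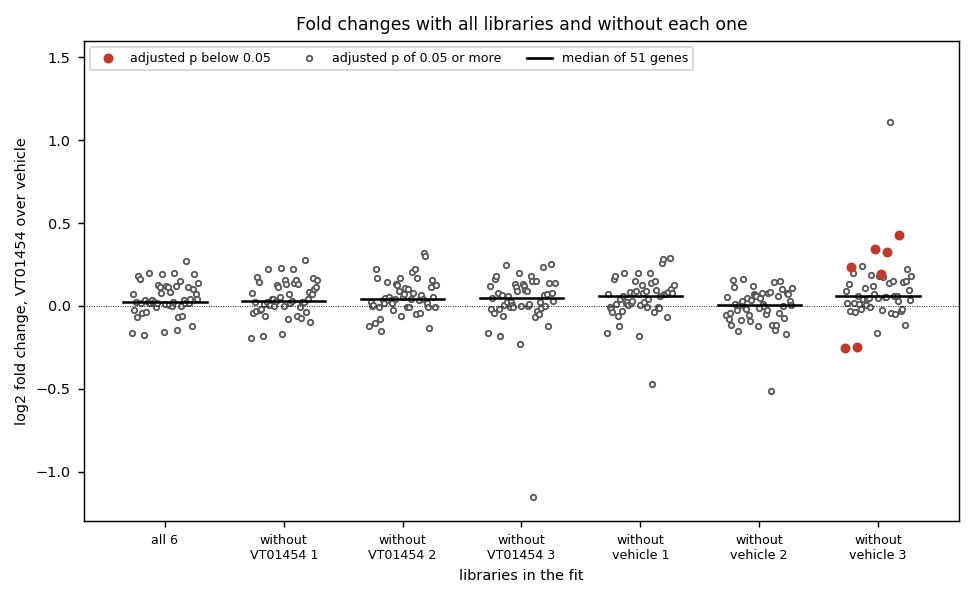
Log2 fold changes (VT01454 over vehicle) of the 51 tested members with all 6 libraries and without each library in turn, with the median as a bar and filled red points for an adjusted p below 0.05 in edgeR. The 7 red points are all in the fit without vehicle library 3, and the points farthest from 0 are PIP4K2B, which runs from −1.15 to 1.11.

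A further 80 genes of the pathway, outside the 52, were taken from a written list of complex partners, other phosphatases and phospholipases, inositol and diacylglycerol recycling, effectors and transfer proteins. Of these 71 were tested and 1 was higher, or 1.41%, against 1.27% of all tested genes, and 0 were lower. An unadjusted p below 0.05 was found for 10, or 14.1%, against 14.4% of all tested genes, and the median log2 fold change was 0.05. These shares were near those of all genes. IPMK (chromosome 10, 58191517 to 58267934, GRCh38), the inositol polyphosphate multikinase that phosphorylates soluble inositol phosphates and PI(4,5)P2, was the gene called. It gave 38.1, 38.1 and 39.1 CPM in VT01454 libraries and 29.1, 26.8 and 32.7 CPM in vehicle libraries. The VT01454 libraries were nearly level and all above the vehicle libraries (log2 fold change 0.38 ± 0.08 SE, adjusted p = 0.0320). DESeq2 and limma-voom also called it (adjusted p = 0.00421 and 0.0438). The call was lost without vehicle library 1 (adjusted p = 0.213), without any 1 of the VT01454 libraries (0.148 to 0.184), and with library size alone (0.0512), while its log2 fold change stayed between 0.31 and 0.46.

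None of the other lists held a call. Among the 9 kinase complex partners HYCC1, a subunit of the PI4KA complex, had 112 ± 4.10 CPM in VT01454 libraries and 95.4 ± 11.2 CPM in vehicle libraries (log2 fold change 0.23 ± 0.08 SE, adjusted p = 0.198). ATG14, which directs the class III kinase to autophagy, had 27.5 ± 1.26 CPM in VT01454 libraries and 24.3 ± 1.90 CPM in vehicle libraries (adjusted p = 0.349). Among 15 tested phosphatases the catalytically inactive myotubularin MTMR10 was low, with 2.11 ± 0.38 CPM in VT01454 libraries and 1.49 ± 0.17 CPM in vehicle libraries (adjusted p = 0.326).

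Among the 6 tested further genes of the phospholipase C family, PLCL1 had 1.396 ± 0.29 CPM in VT01454 libraries and 0.863 ± 0.09 CPM in vehicle libraries (adjusted p = 0.265). PLCB2 had 1.88 ± 0.40 CPM in VT01454 libraries and 2.92 ± 0.99 CPM in vehicle libraries (adjusted p = 0.306). The lipid phosphate phosphatase PLPP2, of the recycling list, had 2.29 ± 0.47 CPM in VT01454 libraries and 3.55 ± 0.36 CPM in vehicle libraries (adjusted p = 0.158). Of the 14 effectors, the protein phosphatase PHLPP1 had 49.6 ± 1.20 CPM in VT01454 libraries and 42.2 ± 7.13 CPM in vehicle libraries, and the IP3 receptor ITPR2 had 42.7 ± 1.97 and 35.6 ± 6.73 CPM, with adjusted p of 0.327 and 0.328. Of the kinases and related proteins outside the 52, PIP5KL1 and PIK3R5 were near 1 CPM or below, and their adjusted p were 0.652 and 0.754. Of the 6 transfer proteins PITPNM3 and PITPNM2 had the smallest p, with adjusted p of 0.428 and 0.675.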

How the data were processed

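RNA-sequencing libraries (6) of HEK293A cells were grouped by the treatment label. HISAT2 2.2.1, HTSeq 0.9.1 and the build hg38 are named in the submitters' processing notes. The authors deposited 1 table per library of raw counts for each Ensembl ID, not normalized. The annotation release, and any setting for strand or for reads that fit several genes, is not given in the sources used here. Symbols were matched for 60357 of 60676 IDs, and coordinates and exonic lengths come from GENCODE 29 on the same build. The members and lists were chosen with earlier results of these data known.

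Counts of all genes kept by filterByExpr were fitted with edgeR 4.0.16 in R 4.3.3 (TMM, robust quasi-likelihood F-test, two-sided, Benjamini-Hochberg adjustment over all tested genes and a threshold of 0.05). The SE of a log2 fold change is its size over the root of the F statistic. CPM are counts over TMM-scaled library sizes, and levels between genes are CPM per kb of exon. Shares within a step were compared by exact permutation of libraries. The script was tested on simulated counts. Alternatives were DESeq2 1.42.0, limma-voom (limma 3.58.1), other scalings, filters and thresholds, the replicate number as a block, leaving out each library, and coding length in place of exonic length. All members are named, and values per library are given for the highest and the smallest-p member of each step, for the PI4KA complex, and as means for the 2 smallest-p genes of each further list, except 1 gene that is not reported here.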

Additional observations from a re-analysis of the deposited data

How the results depend on the processing

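Among 13 alternative fits, the one without vehicle library 3 was the only one to call any member. Over the fits that leave out 1 library, the members called ran from 0 to 7, those higher from 0 to 5, those lower from 0 to 2, and those with an unadjusted p below 0.05 from 0 to 14. The 14, without vehicle library 3, are 27.5% of the members, against 28.0% of all genes in that fit. With no count filter 31171 genes were tested, and 8 of 52 members had an unadjusted p below 0.05, or 15.4%, against 10.01% of all genes. That set holds the low-count genes that the reported fit left out, so these shares are not comparable with those of the reported fit. Of 663 values of single members over the 13 alternatives, 656 kept their side of the threshold and 7 newly passed it. As the reported fit called none of the members, a call could not be lost or reversed here. The members' median log2 fold change ran from 0.0003 with library size alone to 0.06 without vehicle library 1, and stood above that of all genes by 0.031 with library size alone, as in the reported fit, by 0.067 without vehicle library 1 and by 0.0060 without vehicle library 2. With the replicate number as a block 0 members were called, 5 had an unadjusted p below 0.05, and the median was 0.030. Over all tested genes, libraries of the same number showed no shared deviation (correlations −0.072, 0.00111 and 0.00251). With 3 libraries per group, these correlations cannot decide whether the numbers mark pairs. Where a library is left out, 1 group has 2 libraries and shares its estimate of spread with the other. Precision for PIP4K2B, PLCD1 and PIK3R2 is limited by spread or by low counts.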
